A study of Mus musculus with 12 samples.

Results

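DNA replication in mammalian cells runs through a fixed series of protein machines, and the 44 genes described here encode them. They were listed by function, with earlier results of these data known, and are 44 of the 21743 genes in the deposited table, in which all 44 were present. By role they were 11 genes of origin licensing (Orc1, Orc6, Cdc6, Cdt1, Gmnn, Mcm2 to Mcm7), 6 of origin firing (Mcm10, Cdc45, Gins1, Gins2, Gins3, Gins4), 8 of the replicative polymerases and primase (Pola1, Pola2, Prim1, Prim2, Pold1, Pold2, Pole, Pole2), 9 of the sliding clamp, its loader and lagging strand maturation (Pcna, Rfc2, Rfc3, Rfc4, Rfc5, Rpa1, Rpa2, Fen1, Lig1), 5 of nucleotide supply (Rrm1, Rrm2, Tyms, Tk1, Dut) and 5 of chromatin behind the fork (Uhrf1, Hells, Chaf1a, Chaf1b, Slbp).

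Both mice (2 in all) were MMTV-Cre; Brca1flox/flox on a mix of the C57BL/6 and 129/Sv strains. Glands and tumors thus shared this genotype, and no group came from a mouse without the floxed alleles. MMTV-Cre drives recombination in mammary epithelium, and whether each measured cell had lost Brca1 is not shown by these counts, which read the 3′ end of RNA. From each mouse a tumor (MT1 and MT2) and the fourth pair of glands (MG1 and MG2) were dissociated, depleted of hematopoietic and endothelial cells, and profiled by Drop-seq, which captures single cells with barcoded beads in droplets and tags RNA molecules with unique molecular identifiers (UMIs). Mouse 1 gave 2 MG1 and 5 MT1 libraries and mouse 2 gave 2 MG2 and 3 MT2 libraries. The study's methods describe adult virgin or pregnant females for gland isolation, and which state or age applied to these mice is not given in the sources used here. Libraries of a group came from 1 tissue of 1 mouse, so p-values over libraries measure the spread between these libraries, which may be technical.

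In G1 the origin recognition complex, with Cdc6 and Cdt1, loads the Mcm2-7 helicase onto origins, and geminin (Gmnn) blocks Cdt1 once S phase has begun. Mcm10, Cdc45 and the GINS complex turn the loaded helicase into an active fork, polymerase alpha with primase starts each strand, and polymerases delta and epsilon extend them on the Pcna ring that the Rfc complex loads. Fen1 and Lig1 trim and seal Okazaki fragments, ribonucleotide reductase, thymidylate synthase, thymidine kinase and dUTPase supply and guard the dNTP pool, and Chaf1a, Chaf1b, Uhrf1 and Hells rebuild and methylate the new chromatin. Slbp binds the stem-loop of replication-dependent histone mRNA. Most of these genes are classical targets of E2F factors, and in resting mammary epithelium, where few cells divide, their RNA is sparse.

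The start sites of these genes are shown because E2F factors are known to bind such promoters. RefSeq promoters (GRCm38.p6, 250 bases before to 50 after each start) matched 36 of the 44 genes by symbol. Both strands were searched for 4 words of the E2F consensus, TTTCCCGC, TTTCGCGC, TTTGCCGC and TTTGGCGC, which overlap each other on opposite strands in some promoters. A word was found for 15 of the 36 members (41.7%) and for 704 of all 27025 genes with a promoter in the table (2.60%). At least 2 matches were found for 5 members (13.9%) and for 29 of all genes (0.107%). By role the members with a match were 7 of 9 licensing genes, 1 of 3 firing genes, 3 of 6 polymerase genes, 2 of 8 clamp and maturation genes, 0 of 5 nucleotide supply genes and 2 of 5 chromatin genes. A match describes letters in this window and is not a measured binding site. The windows of 30 bases below, given 5′ to 3′ on the strand of the gene, show 4 licensing genes and an example from each other role with a match. The starts are those of RefSeq, which differ from the gene starts of GENCODE M21 given with the results, so some windows lie inside a GENCODE gene. Capitals mark the match whose distance from the start is given, and any other match in a window is left in lower case.
Orc1 (chr4:108579416-108579445, plus strand, 27 bases before the start): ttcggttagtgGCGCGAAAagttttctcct
Cdc6 (chr11:98908002-98908031, plus strand, 138 bases before the start): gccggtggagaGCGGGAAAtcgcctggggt
Mcm5 (chr8:75109345-75109374, plus strand, 153 bases before the start): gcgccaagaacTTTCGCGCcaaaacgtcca
Mcm6 (chr1:128359734-128359763, minus strand, 47 bases before the start): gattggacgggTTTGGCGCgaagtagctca
Gins3 (chr8:95633507-95633536, plus strand, 41 bases before the start): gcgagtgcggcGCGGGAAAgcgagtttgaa
Pola1 (chrX:93632275-93632304, minus strand, 138 bases before the start): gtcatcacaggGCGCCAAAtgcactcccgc
Rfc3 (chr5:151651200-151651229, minus strand, 10 bases before the start): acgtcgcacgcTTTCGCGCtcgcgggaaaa
Hells (chr19:38930917-38930946, plus strand, 62 bases before the start): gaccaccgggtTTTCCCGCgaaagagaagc

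The table held 21157 cells, and the library totals ran from 693333 UMIs (105 cells, MG1 replicate 2) up to 14841414 UMIs in MT2 replicate 1. Cells were clustered without these 44 genes and without 80 other replication and mitotic genes. Further cell cycle genes, such as Aspm and Hist1h1b, were not removed. Then 1139 fibroblast-like, endothelial-like and immune-like cells were set aside, which left 20018 cells. Gland cells fell into secretory-like (12 of 12 secretory markers), hormone-sensing-like (7 of 8) and basal-like (9 of 10) clusters. MT1 cells were mostly epithelial-like, with a mesenchymal-like cluster that carried 4 of 10 mesenchymal and 0 of 10 epithelial markers. MT2 cells fell into a pair of clusters that carried 0 of 10 epithelial markers and no name (under 3 markers of any type). Cluster 1 was led by Ptgs2, Grem1 and Fn1, and cluster 2 by Top2a, Cenpe and Cenpf. In the gland libraries 14 MG1 and 47 MG2 cells lay in tumor clusters, and they held 5.73% and 8.87% of the members' UMIs in MG1 and MG2.

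Levels are given in CPM, a gene's share of all UMIs of a library, summed over the cells outside the stromal clusters and scaled with TMM factors. UMIs count 3′ ends, so levels of different genes need no scaling by length. The 44 genes had 1467 UMIs in the MG1 libraries and 4904 in the MG2 libraries, against 36709 for MT1 and 88949 for MT2, from 311 UMIs for Pole2 to 11664 for Pcna over the 12 libraries. MG1 was the shallowest group: 1 UMI was worth 1.72 CPM in MG1 replicate 2. In such sums, a larger share of cells in S phase and more RNA per cell cannot be told apart.

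Nearly all replication genes were higher in both tumors than in the gland of the same mouse. The summed level of the 44 genes was 510 and 409 CPM in the MG1 libraries, 590 and 570 in MG2, 2234, 1569, 1802, 1949 and 2135 in MT1, and 2149, 2514 and 2107 in MT2. Every tumor library lay above every gland library. In mouse 1, 42 of 44 genes rose and 0 fell, with a median log2 fold change of 2.65 (edgeR quasi-likelihood test, Benjamini-Hochberg adjusted p under 0.05). Of all 13650 genes tested, 32.2% were called higher and 27.1% lower in MT1, with a median of 0.11, a shift that RLE size factors removed. In mouse 2, 42 of 44 rose and 0 fell, with a median of 2.28, beside 32.7% of all genes called higher, 34.3% lower and a median of -0.05. With the mouse as the replicate and 1 sum per tissue, edgeR called 0 members (0% of 14947 genes) after adjustment, and 37 had an unadjusted p under 0.05, beside 14.8% of all genes. DESeq2 called 27 of the 44 higher in that paired design, beside 4.15% of the 14523 genes it tested. In mouse 1, 35 genes kept their call without MG1 replicate 1, and Orc1, Cdc6, Pola2, Pole2, Rfc2, Lig1 and Rrm2 lost it.

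**Figure D1:**
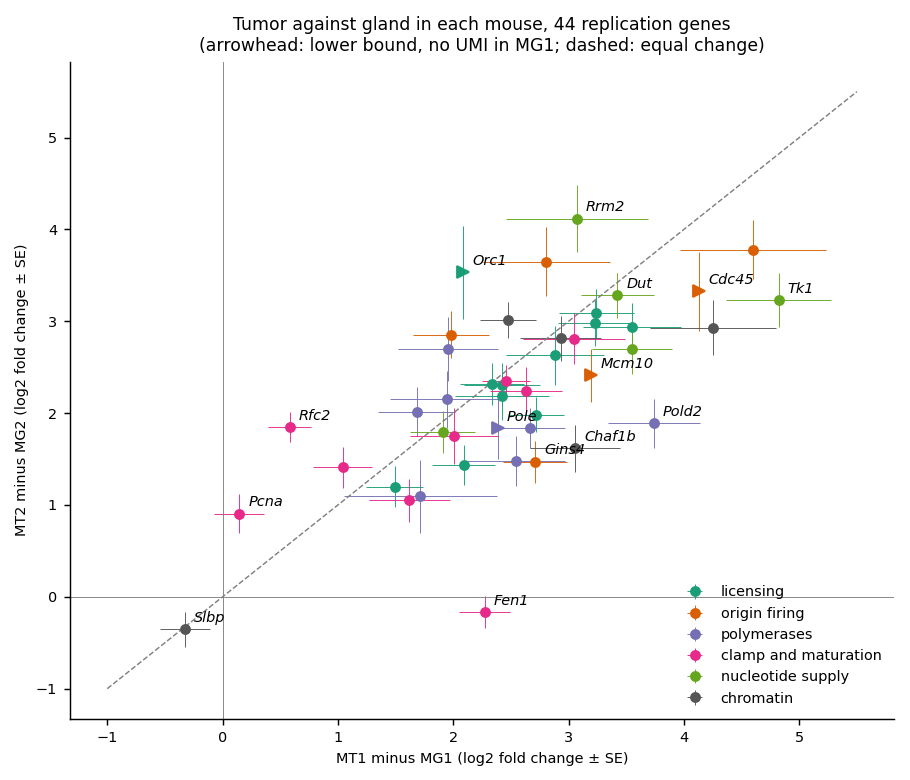
Log2 fold change of tumor against gland for the 44 genes in mouse 1 (x axis) and mouse 2 (y axis), coloured by role, with standard errors from edgeR. Most genes lie near the dashed line of equal change between 1 and 4 on both axes, Fen1 lies at 2.27 in mouse 1 and -0.17 in mouse 2, and arrowheads mark genes with no UMI in MG1, placed at their lower bound.

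Licensing genes moved together: all 11 were called higher in each tumor, with medians of 2.72 in mouse 1 (2.42 with Orc1, which had no MG1 UMI, at its lower bound) and 2.32 in mouse 2. Their summed level rose from 98.4 ± 32.3 CPM (SD, n = 2) in MG1 to 589.9 ± 87.2 (n = 5) in MT1, and from 139 ± 14.1 (n = 2) in MG2 to 624.9 ± 77.8 (n = 3) in MT2. The 6 helicase genes Mcm2 to Mcm7 ranged from 1.49 (Mcm6) to 3.55 (Mcm5) in mouse 1 and from 1.20 (Mcm6) to 2.98 (Mcm3) in mouse 2. Mcm6 had the highest gland level of the helicase genes, 30.02 CPM in MG1 and 34.8 in MG2, before its rise to 94.6 in MT1 and 80.2 in MT2. The gene for geminin rose by 3.24 and 3.09.

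Orc6 (chr8:85299632-85308278), a subunit of the origin recognition complex, had the most UMIs of the licensing genes. It had 19.1 and 24.1 CPM in MG1, 31.5 and 29.99 in MG2, 134, 73.5, 92.3, 109 and 112 in MT1, and 137, 188 and 137 in MT2. No tumor library overlapped a gland library. The change was 2.34 (SE 0.28, adjusted p 1.72e-06) in mouse 1 and 2.32 (SE 0.23, adjusted p 7.35e-08) in mouse 2 by edgeR. Orc1, the largest subunit, had no UMI in the MG1 libraries, 5 in those of MG2, 82 in MT1 and 278 in MT2. With MG1 set at a limit of 3 counts over the group, MT1 was at least 4.25-fold higher.

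Origin firing genes rose in both mice as well, 6 of 6 in each, with medians of 3.70 and 3.09. With the genes that had no MG1 UMI at their lower bound, the mouse 1 median of firing genes was 3.00 and that of all 44 genes was 2.51. Gins2 (chr8:120578633-120589304), a GINS subunit, had 8.72 and 13.7 CPM in MG1, 9.31 and 11.5 in MG2, 47.5, 31.3, 34.1, 38.9 and 46.5 in MT1, and 61.9, 98.5 and 65.99 in MT2. MT2 lay above MT1 and MT1 above both glands without overlap. The change was 1.98 (SE 0.33) in mouse 1 and 2.86 (SE 0.26) in mouse 2. Cdc45 had 0 UMIs in MG1 and 338 in MT1, at least 17.5-fold higher, and rose by 3.33 in mouse 2.

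Mcm10 (chr2:4989714-5012791), which helps to activate the helicase, had 0 UMIs in both MG1 libraries. It had 3.34 and 5.62 CPM in MG2, 12.3, 6.65, 9.19, 8.01 and 11.3 in MT1, and 25.6, 27.1 and 19.4 in MT2. All MT2 libraries lay above all MT1 libraries. MT1 was at least 9.17-fold above MG1, and MT2 was above MG2 by 2.42 (SE 0.29, adjusted p 1.06e-06 by edgeR).

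Gins4 (chr8:23226616-23237659), another GINS subunit, went the other way between the tumors. It had 9.96 and 6.87 CPM in MG1, 5.96 and 10.3 in MG2, 62.7, 52.4, 61.4, 62.5 and 63.1 in MT1, and 20.0, 27.0 and 21.0 in MT2. It rose by 2.71 (SE 0.28) in mouse 1 and 1.47 (SE 0.23) in mouse 2, while Gins1 rose by 2.81 and 3.65 and Gins3 by 4.601 and 3.78.

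Polymerase and primase genes rose in both mice, 8 of 8 in each, with medians of 2.25 (2.17 with Pole at its lower bound) and 1.86. Pola1 (chrX:93304767-93632155), the catalytic subunit of polymerase alpha, had 18.3 and 5.15 CPM in MG1, 27.0 and 19.5 in MG2, 60.97, 30.1, 49.2, 47.7 and 52.3 in MT1, and 108, 93.7 and 79.7 in MT2. The change was 1.68 (SE 0.33) in mouse 1 and 2.02 (SE 0.27) in mouse 2. Pole (chr5:110286306-110337474), the catalytic subunit of polymerase epsilon, had 0 UMIs in MG1, 1.67 and 2.81 CPM in MG2, 5.28, 3.52, 4.99, 5.47 and 6.68 in MT1, and 8.74, 8.50 and 6.98 in MT2. MT1 was at least 5.23-fold above MG1, and the gene rose by 1.84 (SE 0.34) in mouse 2. Pold2 (chr11:5872180-5878292), a subunit of polymerase delta, had 2.90 and 1.72 CPM in MG1, 4.30 and 5.62 in MG2, 44.6, 28.2, 36.6, 34.0 and 36.9 in MT1, and 14.5, 22.8 and 18.1 in MT2. Its rise was 3.74 (SE 0.40) in mouse 1 and 1.89 (SE 0.27) in mouse 2, and MT1 lay above MT2 without overlap.

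The clamp and maturation genes held most of the exceptions. Of these 9 genes, 8 rose in each mouse, with medians of 2.01 and 1.75, and a different member was not called in each. Their sum was 209.6 ± 14.6 CPM in MG1 and 499.5 ± 44.01 in MT1, 2.38-fold higher, and 237 ± 33.8 in MG2 and 591 ± 51.2 in MT2, 2.49-fold higher, where the nucleotide supply sum rose 8.38-fold and 7.55-fold.

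Pcna (chr2:132249162-132253314), the sliding clamp and a common proliferation marker, was not called in mouse 1. It had 108 and 84.2 CPM in MG1, 137 and 91.2 in MG2, 113, 121, 87.7, 85.8 and 140 in MT1, and 202, 220 and 219 in MT2. MG1, MG2 and MT1 overlapped, and MT2 lay above them all. The change was 0.14 (SE 0.22, adjusted p 0.586) in mouse 1 and 0.91 (SE 0.21, adjusted p 0.00105) in mouse 2 by edgeR. In both glands Pcna had the highest level of the 44 genes, 95.8 ± 16.5 CPM in MG1 and 114 ± 32.2 in MG2.

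Fen1 (chr19:10199132-10204169), the flap endonuclease of Okazaki fragments, was called in mouse 1 and not in mouse 2. It had 17.02 and 12.02 CPM in MG1, 26.3 and 26.01 in MG2, 83.2, 75.9, 65.0, 76.8 and 81.4 in MT1, and 21.0, 27.0 and 21.9 in MT2. MT1 lay above the other 3 groups, while MT2 overlapped MG2. The change was 2.27 (SE 0.22, adjusted p 1.84e-07) in mouse 1 and -0.17 (SE 0.17, adjusted p 0.405) in mouse 2 by edgeR, where leaving out MG2 replicate 1 or 2 gave 0.05 and 0.04 with no call. Fen1 overlaps Gm10143 and Tmem258 on the opposite strand, Gm10143 at its 3′ end. Lig1, the ligase that seals the nick after Fen1, rose by 1.04 and 1.41.

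Rfc2 (chr5:134581366-134601805), a clamp loader subunit, had 27.4 and 32.6 CPM in MG1, 23.4 and 20.9 in MG2, 46.3, 37.2, 41.1, 45.5 and 47.1 in MT1, and 75.5, 85.3 and 78.8 in MT2. It rose by 0.58 (SE 0.19, adjusted p 0.0126 by edgeR) in mouse 1 and 1.85 (SE 0.17, adjusted p 1.88e-08) in mouse 2. The mouse 1 call was lost with RLE size factors (0.46), with DESeq2 (0.48), with only MG1 and MT1 in the fit (0.50) and without MG1 replicate 1 (0.40). The other loader genes Rfc3, Rfc4 and Rfc5 rose by 2.46, 2.63 and 3.05 in mouse 1 and by 2.35, 2.25 and 2.81 in mouse 2. Rfc2, Rfc4 and Rfc5 overlap another gene on the opposite strand (Lat2, Eif4a2 and Wsb2), and whether the counting used strand is not given in the sources used here.

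**Figure D2:**
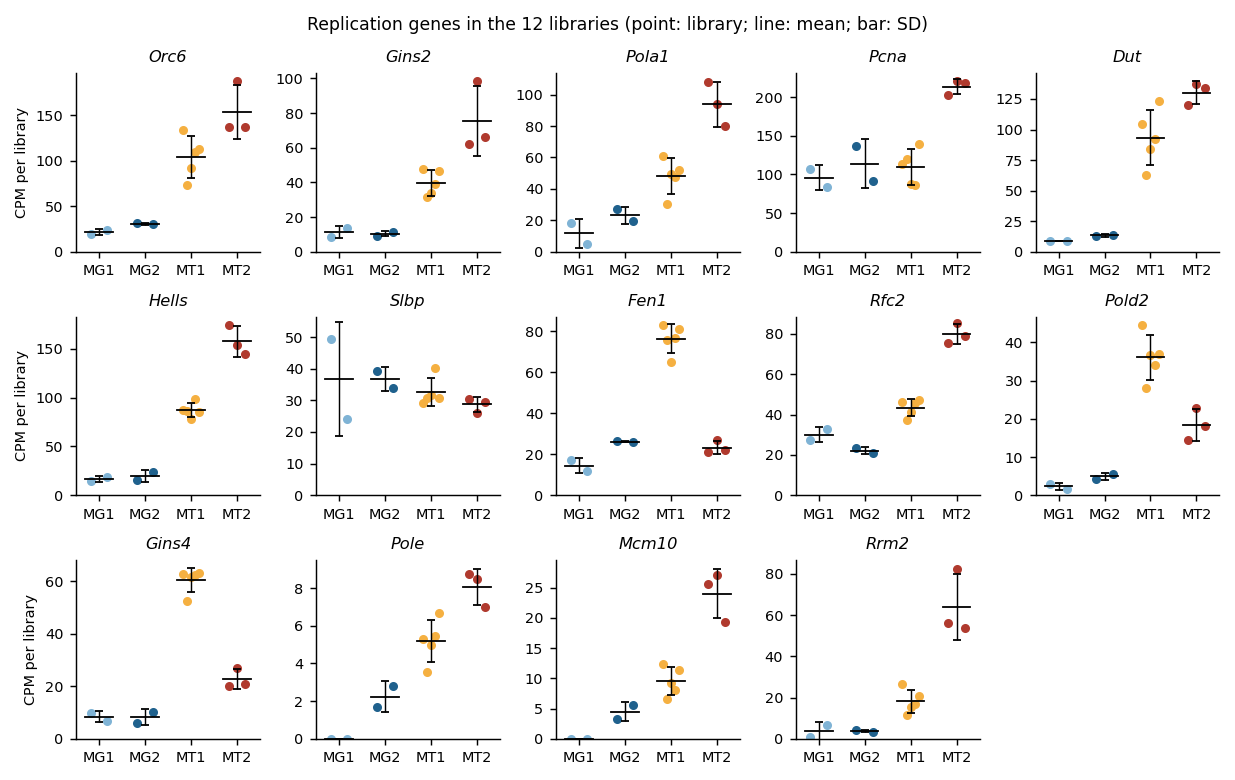
Level in CPM (y axis, from 0) of 14 replication genes in each of the 12 libraries (points, coloured by group), with the group mean (line) and SD (bar). Fen1, Gins4 and Pold2 are highest in MT1, Pcna is raised in MT2 alone, Slbp overlaps between MG1 and MT1, and the other genes have their highest mean in MT2.

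The 5 nucleotide supply genes rose in both mice, with medians of 3.42 and 3.23. Dut (chr2:125247190-125258608), the dUTPase, had 8.72 and 8.59 CPM in MG1, 12.7 and 14.1 in MG2, 105, 62.6, 84.2, 92.0 and 124 in MT1, and 120, 137 and 134 in MT2. Its change was 3.42 (SE 0.32) in mouse 1 and 3.28 (SE 0.25) in mouse 2. Rrm2 (chr12:24708241-24714146), the small subunit of ribonucleotide reductase made in S phase, had 0.830 and 6.87 CPM in MG1, 4.06 and 3.28 in MG2, 26.4, 11.3, 15.3, 16.8 and 20.9 in MT1, and 56.0, 82.5 and 53.8 in MT2. It rose by 3.07 (SE 0.61, adjusted p 3.54e-04 by edgeR) in mouse 1, a call lost without MG1 replicate 1 (1.34), and by 4.12 (SE 0.36) in mouse 2. Rrm1, the large subunit, had a higher gland level (15.2 CPM in MG1, 15.8 in MG2) and rose by 1.91 and 1.80. Tk1 rose by 4.82 in mouse 1 and 3.23 in mouse 2, and Tyms by 3.55 and 2.69.

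Of the chromatin genes, 4 of 5 rose in each mouse. Hells (chr19:38930915-38971051), a chromatin remodeler needed for DNA methylation, had 14.5 and 18.9 CPM in MG1, 15.3 and 23.7 in MG2, 87.4, 86.0, 78.4, 98.8 and 85.7 in MT1, and 175, 154 and 144 in MT2. It rose by 2.47 (SE 0.24) and 3.01 (SE 0.20). Uhrf1, which brings maintenance methylation to the fork, rose by 4.25 and 2.93, and Chaf1a, the large subunit of the histone chaperone CAF-1, by 2.93 and 2.81.

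Slbp (chr5:33634952-33652574) was the 1 gene called in neither mouse. It had 49.4 and 24.1 CPM in MG1, 39.4 and 34.0 in MG2, 29.3, 30.9, 31.6, 40.2 and 30.8 in MT1, and 30.5, 26.0 and 29.6 in MT2. The groups of mouse 1 overlapped, and in mouse 2 the MT2 libraries lay below MG2. The change was -0.33 (SE 0.21, adjusted p 0.199) in mouse 1 and -0.35 (SE 0.19, adjusted p 0.113) in mouse 2 by edgeR. Without MG1 replicate 2, Slbp was called lower in MT1 (-0.56, edgeR adjusted p 0.0252), and without MG1 replicate 1 it had 0.45 with no call.

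The tumor-gland change differed between the mice for 8 of the 44 genes, 6 with a more positive change in mouse 1 and 2 with a more positive change in mouse 2. Without MG1 replicate 1 there were 4 and without MG2 replicate 2 there were 3. Of all genes, 26.4% were called in the first direction and 17.1% in the second, with a median difference of 0.15, which RLE size factors also removed. No licensing or nucleotide supply gene was called in the main fit (11 and 5 tested, with 1 of each at an unadjusted p under 0.05). The differences of Mcm2 to Mcm7 ranged from 0.25 to 0.74. Mcm7 was called with all cells (0.85) and without MT2 replicate 2 (0.85), Tyms with all cells (1.34). Tk1 was called without the highest 5% of doublet scores (1.91), and Mcm4 had 1.88 without MG1 replicate 1. Fen1 had the smallest adjusted p, with a difference of 2.44 (SE 0.28, adjusted p 1.54e-06 by edgeR). It was called in every alternative run, with values from 2.28 to 2.81. Rfc2 was next, with -1.27 (SE 0.25, adjusted p 4.94e-04), called in every alternative run.

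Pold2 differed by 1.85 (SE 0.56, adjusted p 0.0121 by edgeR) and Gins4 by 1.24 (SE 0.38, adjusted p 0.0128). Both calls were lost without MG1 replicate 1 (2.46 and 1.65) or MG2 replicate 2 (1.48 and 0.63), and that of Gins4 also without the gland cells in tumor clusters (0.88). Chaf1b, the middle subunit of CAF-1, differed by 1.44 (SE 0.53, adjusted p 0.0346 by edgeR), a call lost in 11 of 18 alternatives, among them DESeq2 (1.32) and leaving out any 1 gland library (1.127 to 2.04). Hells was not called (-0.54, adjusted p 0.178), but it was without the gland cells in tumor clusters (-0.95) or without MG2 replicate 2 (-1.06). Mcm10 and Pole had fitted differences with adjusted p of 0.0230 and 0.0211, which rest on 0 UMIs in MG1 and lost their call with DESeq2, without MG1 replicate 1 and without MG2 replicate 2. Pcna differed by -0.76 (SE 0.30, adjusted p 0.0466), a call lost without any 1 of MG1 replicate 1 (-0.55), MG2 replicate 2 (-0.67), MT1 replicates 3 and 4 (-0.68 and -0.68) and MT2 replicates 1, 2 and 3 (-0.80, -0.74 and -0.74), and with no low-count filter (-0.78).

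Between the tumors, 27 of the 44 genes differed, 7 higher in MT1 and 20 higher in MT2, beside 35.3% and 33% of all genes. The 7 were Fen1, Gins4, Pold2, Chaf1b, Tyms, Rfc4 and Tk1, of which Rfc4 lost its call in 3 alternatives and Tk1 in 11. Values here are MT1 minus MT2. Fen1 had 1.71 (SE 0.14, adjusted p 3.13e-09), Gins4 1.42 (SE 0.15, adjusted p 1.46e-07) and Pold2 0.95 (SE 0.16, adjusted p 4.71e-05) by edgeR. Rrm2 had -1.86 (SE 0.21, adjusted p 3.48e-07), Mcm10 -1.37 (SE 0.19, adjusted p 6.18e-06), Pcna -0.97 (SE 0.16, adjusted p 3.67e-05) and Pola1 -0.97 (SE 0.19, adjusted p 1.65e-04).

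By role, 4 of 6 firing genes, 3 of 8 polymerase genes, 4 of 9 clamp and maturation genes, 4 of 11 licensing genes, 2 of 5 nucleotide supply genes and 3 of 5 chromatin genes were higher in MT2, beside 33% of all genes, a share that the licensing and polymerase counts were near. Of the 19 alternatives, 8 lost the call of Cdc6, 5 that of Orc1 and 3 that of Lig1, while 11 added a call for Cdt1 in the direction of MT2 and 5 for Rpa2 in that of MT1. Subunits of 1 complex differed in sign. Of the GINS complex, Gins4 was higher in MT1 while Gins1 (-0.76), Gins2 (-0.94) and Gins3 (-0.94) were higher in MT2. Of CAF-1, Chaf1b (0.61) was higher in MT1 and Chaf1a (-0.36) in MT2, the latter lost in 6 alternatives, and of the clamp loader, Rfc4 (0.52) was higher in MT1 and Rfc2 (-0.88) and Rfc5 (-0.64) in MT2. The helicase genes were close, with Mcm5 alone called (-0.52, SE 0.15, adjusted p 0.00606 by edgeR) and the other 5 between -0.13 and 0.27, of which Mcm4 was called without MT2 replicate 2 (0.40). The MT2 excess of Orc6 (-0.57, adjusted p 0.00463) was lost without MT2 replicate 2 (-0.38), and that of Pole (-0.62, adjusted p 0.0182) without MT2 replicate 1 (-0.55) or 2 (-0.57).

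**Figure D3:**
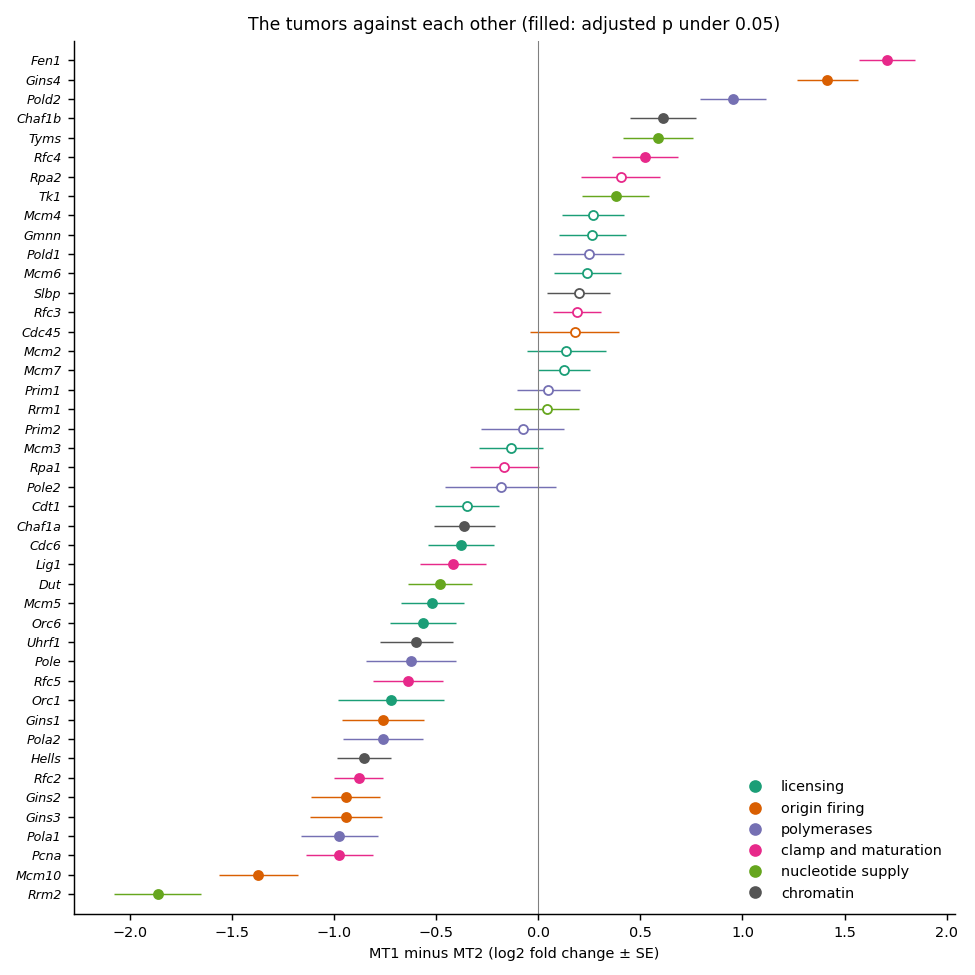
Log2 fold change of MT1 minus MT2 (x axis, with SE) for each of the 44 genes (rows), coloured by role, with filled points where the edgeR adjusted p was under 0.05. Fen1 and Gins4 stand at the right (1.71 and 1.42), Mcm10 and Rrm2 at the left (-1.37 and -1.86), and most helicase genes near 0.

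Of 52 further replication genes (origin recognition subunits and kinases, accessory fork proteins, nucleotide enzymes, chaperones, E2F and cyclin E genes), 49 were tested. In mouse 1, 35 rose and 2 fell, with a median of 1.16, beside 32.2% of all genes called higher and 27.1% lower. In mouse 2, 33 rose and 4 fell, with a median of 0.85, beside 32.7% and 34.3%. Of the 8 E2F and cyclin E genes tested, 7 rose in each mouse, with medians of 2.61 and 2.52, beside the same shares of all genes. The change differed between the mice for 8 of the 49 in the direction of mouse 1 and 2 in that of mouse 2, beside 26.4% and 17.1% of all genes. Asf1a, a histone chaperone, rose by 1.86 in mouse 1 and had 0.12 (adjusted p 0.586) in mouse 2 by edgeR, a difference of 1.74. Shmt1, a folate enzyme of thymidylate synthesis, rose by 1.62 and had -0.20 (adjusted p 0.491 by edgeR) in mouse 2, a difference of 1.82. Dbf4, the activator of the Cdc7 kinase that fires origins, rose by 1.78 in mouse 1 and 3.10 in mouse 2, from 11.3 CPM in MG1 and 23.4 in MG2 to 46.5 in MT1 and 202 in MT2, a difference of -1.33. Pole4, a small polymerase epsilon subunit, fell by 0.90 in mouse 1 and had 0.15 (adjusted p 0.361 by edgeR) in mouse 2, a difference of -1.06.

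Mitotic genes rose in both tumors, 28 of 28 in each mouse, with medians of 3.91 (3.76 with genes at 0 UMIs in MG1 at their lower bound) and 3.72, beside 32.2% and 32.7% of all genes called higher. Of these, 17 were higher in MT2 than MT1 and 1 was higher in MT1, beside 33% and 35.3% of all genes. Their summed level was 2114, 1029, 1609, 1792 and 1989 CPM in MT1 and 3459, 3936 and 2735 in MT2, without overlap. The replication sum divided by the mitotic sum lay between 1.06 and 1.52 in the MT1 libraries and between 0.621 and 0.770 in the MT2 libraries. The change of 2 mitotic genes differed between the mice, Cenpe (-1.51, SE 0.56) and Mki67 (-1.26, SE 0.42), both more positive in mouse 2. All genes called in that direction made up 17.1%, a larger share than these 2 of 28.

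Read per cell, a small share of gland cells and a larger share of tumor cells reached the cutoff for replication RNA in every library. Each cell was thinned to 800 UMIs, fewer than in the shallowest cell (1111). A cell with 2 or more UMIs over the 44 genes was counted as having S-phase UMIs. A cell can also reach 2 UMIs by sampling from a low level that many cells share. The share thus depends on the mean level and is not a count of cycling cells. The share was 4.03% and 8.45% in the MG1 libraries, 8.08% and 7.76% in MG2, 45.9%, 27.2%, 32.0%, 35.9% and 39.2% in MT1, and 33.7%, 46.1% and 34.6% in MT2. The lowest tumor library (27.2%, exact 95% binomial interval 23.9 to 30.6%) lay above the highest gland library (8.45%, 3.17 to 17.5%), which held 71 cells. These intervals cover counting error only. The mean difference was 29.98 percentage points, 29.8 in mouse 1 and 30.2 in mouse 2. Permuting libraries within mice gave a two-sided exact p of 0.00476, the smallest that the 210 arrangements allow. Within a mouse alone the exact p was 0.0476 for mouse 1 and 0.10 for mouse 2, the smallest each allows, and without any 1 mouse 1 library the smallest for mouse 1 was 0.0667 or 0.167. The means of MT1 (36.0% ± 7.10, SD, n = 5) and MT2 (38.1% ± 6.89, n = 3) differed by less than their SD.

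Without thinning, mean shares over libraries were 50.8% and 40.5% in the glands (MG1 and MG2) and 70.2% and 80.5% in the tumors (MT1 and MT2). The mean difference was 19.8 points at 500 UMIs, 19.3 points with a cutoff of 3 UMIs and 43.3 points at 1500 UMIs. The last setting also left out the 1531 shallower cells (2 of MG1 and 159 of MG2, against 1036 of MT1 and 334 of MT2), so it changed the cells as well as the depth. Without Pcna, Orc6 and Hells, the 3 members with the most UMIs, the means were 2.50% and 5.32% in the glands (MG1 and MG2) and 30.7% and 30.6% in the tumors (MT1 and MT2), with a difference of 26.7 points. Of the thinned gland cells, 73.2% in MG1 and 68.2% in MG2 had no UMI of the 44 genes, against 35.5% in MT1 and 33.9% in MT2. Cells with 3 or more UMIs made up 1.05% of MG1 and 2.51% of MG2, against 19.9% of MT1 and 24.8% of MT2.

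Among the 3 gland epithelial types, the share was highest in secretory-like cells in both libraries of MG2, while in MG1 the library values overlapped. Pooled shares were 5.09% of secretory-like, 4.44% of hormone-sensing-like and 3.70% of basal-like cells in MG1, and 9.03% (7.26 to 11.1%), 5.98% (4.54 to 7.72%) and 6.25% (3.46 to 10.3%) in MG2. In the MG2 libraries they were 8.84% and 9.23% of secretory-like cells, 6.70% and 5.26% of hormone-sensing-like cells and 5.93% and 6.60% of basal-like cells, without overlap of the first with the others. The mean over thinned MG2 cells was 0.459 UMIs in secretory-like, 0.389 in hormone-sensing-like and 0.429 in basal-like cells. Neither the difference between the types nor whether these shares exceed random sampling from such low means was tested. Of the 167 MG2 cells with S-phase UMIs, 15 were among the 47 located in tumor clusters, and leaving these out gave an MG2 share of 7.37% ± 0.27 (SD, n = 2).

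In MT1, mesenchymal-like cells had a larger share than epithelial-like cells in each of the 5 libraries. It was 55.2% against 43.6% in replicate 1, 34.8% against 26.8% in replicate 2, 39.1% against 30.7% in replicate 3, 44.6% against 34.2% in replicate 4 and 50.8% against 36.1% in replicate 5. Over all cells it was 45.2% of 1346 mesenchymal-like cells (median 2328 UMIs) and 33.6% of 6013 epithelial-like cells (median 2080 UMIs). The 69 hormone-sensing-like cells found in MT1 (median 1946 UMIs) had 23.2% (13.9 to 34.9%), beside 12.5% (7.45 to 19.3%) of the 136 fibroblast-like cells of MT1, and no change in this type was read from it. In MT2, cluster 2 had 68.7% and cluster 1 had 22.1% of cells with S-phase UMIs. Of the genes leading cluster 2, Aspm, Knl1, Hist1h1b and Hist1h1e were not removed before clustering. Its larger share can therefore restate how the cells were split. Cluster 2 lay at 66.6%, 70.5% and 66.3% in the 3 MT2 libraries, and cluster 1 at 17.7%, 26.5% and 19.8%.

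Among stromal cells of the same tumor libraries, fibroblast-like cells had a smaller share than the cells outside stromal clusters of their own library. In MT2 replicate 2 they had 27.8% (90 cells), beside 46.1% outside stromal clusters and 26.5% in cluster 1 of that library. Pooled over libraries, fibroblast-like cells had 12.5% in MT1 and 17.4% in MT2, where their median depths were 1911 and 2463 UMIs. They had 7.94% and 7.35% in MG1 and MG2. Endothelial-like cells had 25.5% in MT1 (94 cells, 17.1 to 35.6%), an interval that reached the shares of the MT1 libraries, and 13.0% in MT2 (46 cells). The 185 immune-like cells of MT2 had 37.8% (30.8 to 45.2%), beside a mean of 38.1% over the MT2 libraries. How much of these shares, or of that of the hormone-sensing-like cells in MT1, comes from free RNA or doublets was not tested.

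**Figure D4:**
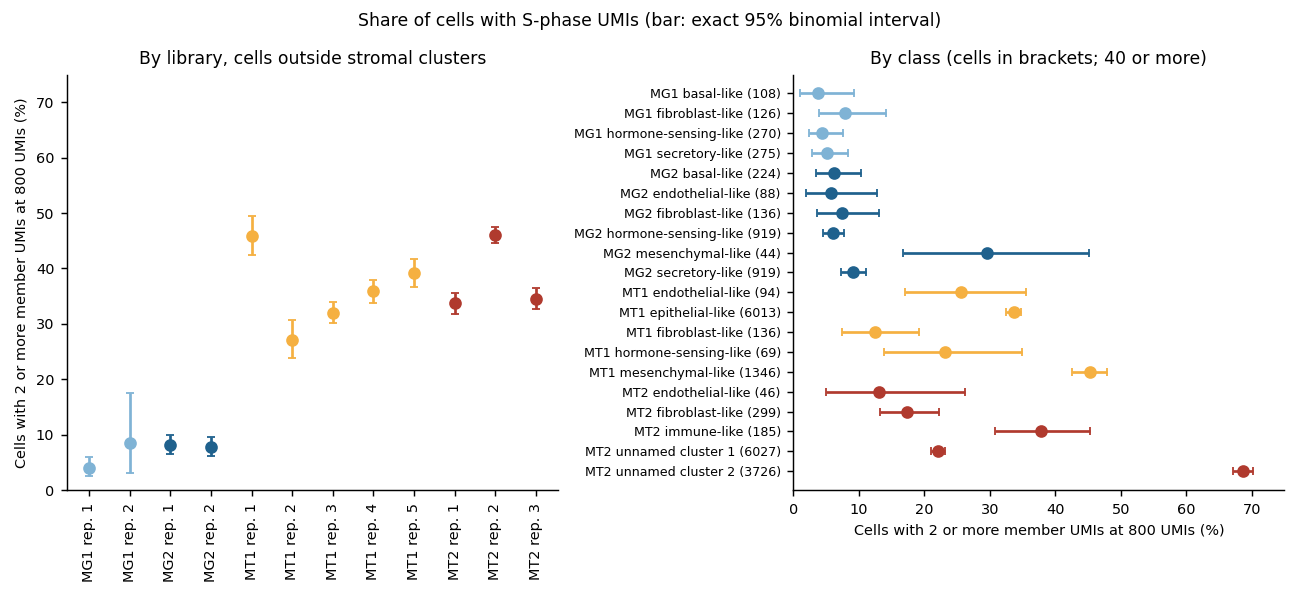
Percent of cells reaching 2 UMIs over the 44 genes once thinned to 800 UMIs, by library (left) and by cell class in each group (right, classes with 40 or more cells), with exact 95% binomial intervals. Gland libraries lie between 4.03% and 8.45% and tumor libraries between 27.2% and 46.1%. MT2 cluster 2, itself led by cell cycle genes, has the highest class share (68.7%).

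The tumors differed in how replication and mitotic RNA met in the same cells. At 800 UMIs, 14.2% of MT1 cells and 25.7% of MT2 cells had 2 or more UMIs of both lists, 21.4% and 14.2% had replication UMIs alone, and 7.51% and 15.4% had mitotic UMIs alone. Of the cells with S-phase UMIs, the share that also had mitotic UMIs was 45.5%, 26.5%, 36.0%, 40.7% and 44.6% in the MT1 libraries and 60.8%, 69.1% and 56.7% in the MT2 libraries. The groups did not overlap. More MT2 than MT1 cells had mitotic UMIs at all (41.1% against 21.6%), and the reverse share, that of mitotic cells with S-phase UMIs, overlapped, at 53.2% to 73.2% in the MT1 libraries and 59.4% to 64.7% in the MT2 libraries. In MG1 the first share was 3.33% of 30 cells and in MG2 17.4% of 167 cells.

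**Figure D5:**
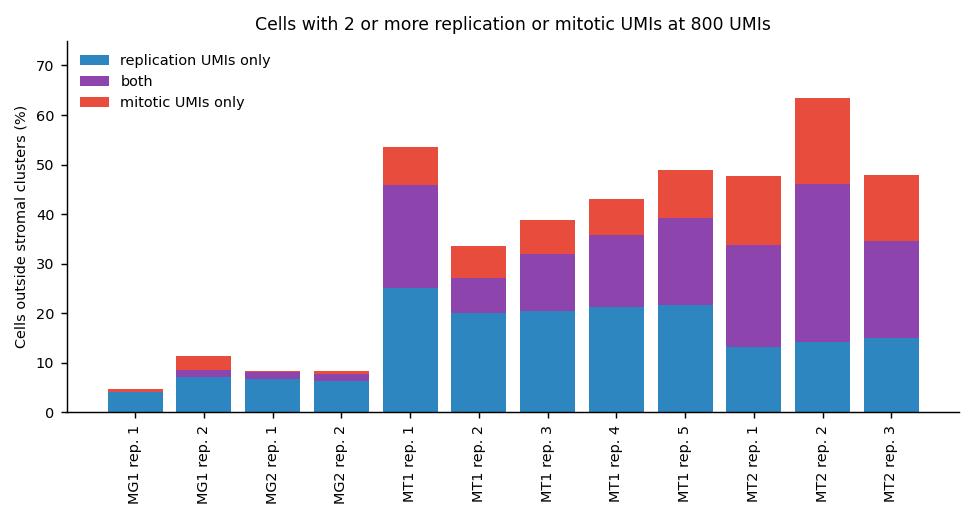
Share of cells (y axis) with 2 or more UMIs of the replication genes alone, of the mitotic genes alone or of both after thinning to 800 UMIs, in each library (stacked bars). Cells with both make up 7.18% to 20.9% of MT1 libraries and 19.6% to 31.8% of MT2 libraries.

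Within the gland, summed levels were similar among cell types and single genes differed. The 44 members summed to 522, 378, 570 and 602 CPM in the secretory-like cells of MG1 replicates 1 and 2 and MG2 replicates 1 and 2, to 474, 485, 529 and 475 in hormone-sensing-like cells, and to 604, 402, 652 and 509 in basal-like cells. The types overlapped. Of the 15 members deep enough to test, secretory-like cells were higher than hormone-sensing-like cells for 3 and lower for 1, beside 18.5% and 18.5% of 7535 genes. Hormone-sensing-like cells were higher than basal-like cells for 2 and lower for 3, beside 24.3% and 21% of genes. Between secretory-like and basal-like cells the only calls were Fen1 (higher) and Dut (lower), beside 15.4% and 15.1% of genes. Both passed the filter on low counts through the type in which they were highest, with 2 and 1 sums outside it at the level that 4 had to reach. No count is therefore read from that comparison. Fen1 was also among the 3 above hormone-sensing-like cells.

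Fen1 was highest in secretory-like cells. It had 31.3, 22.9, 43.3 and 41.2 CPM in the secretory-like cells of the 4 gland libraries, 5.92, 10.3, 14.3 and 13.6 in hormone-sensing-like cells and 13.5, 0, 3.18 and 7.37 in basal-like cells. No secretory-like value overlapped the other types. Since the filter kept Fen1 through its secretory-like sums, its edgeR test is not used here. By DESeq2, which did not use that filter, the difference was 1.64 (SE 0.44, adjusted p 0.00198) against hormone-sensing-like and 2.44 (SE 0.70, adjusted p 0.00436) against basal-like cells, beside 7.83% and 8.05% of all genes called higher. In edgeR with MG1 replicate 1 or either MG2 replicate left out, Fen1 was no longer deep enough to be tested.

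Pcna was lower in hormone-sensing-like cells than in secretory-like cells and in basal-like cells, the contractile outer layer. It had 194, 194, 185 and 129 CPM in basal-like cells, 128, 91.6, 148 and 105 in secretory-like cells and 79.5, 61.9, 109 and 67.9 in hormone-sensing-like cells. Basal-like cells did not overlap hormone-sensing-like cells (-1.06 for hormone-sensing-like minus basal-like, SE 0.20, adjusted p 1.07e-04 by edgeR). Secretory-like cells were above hormone-sensing-like cells by 0.57 (SE 0.17, adjusted p 0.0111), a call lost without either MG2 replicate (0.57 and 0.48) or without the library block (0.56). Secretory-like and basal-like cells overlapped and their difference was not called (-0.49, SE 0.19, adjusted p 0.0577 by edgeR). Mcm6 was higher in hormone-sensing-like than in secretory-like (-0.69, SE 0.26, adjusted p 0.0366) and basal-like cells (1.29, SE 0.42, adjusted p 0.0140), and Lig1 was higher in hormone-sensing-like than basal-like cells (1.36, SE 0.46, adjusted p 0.0172). The Mcm6 excess over secretory-like cells was lost with DESeq2 (-0.82), without the library block (-0.67), and without MG1 replicate 2 (-0.62) or MG2 replicate 1 (-0.65) or 2 (-0.94). The excesses of Mcm6 and Lig1 over basal-like cells were lost without MG2 replicate 2 (1.01 and 1.12). Pola1 was lower in hormone-sensing-like than in secretory-like (0.92, adjusted p 0.0306 by edgeR) and basal-like cells (-1.53, adjusted p 0.00485), and Slbp was lower in hormone-sensing-like than basal-like cells (-0.79, adjusted p 0.0282). DESeq2 called none of these 3 differences, with 0.74 and -1.28 for Pola1 and -0.73 for Slbp. Without the library block the Slbp call (-0.80) and that of Pola1 against secretory-like cells (0.91) were lost. Slbp also lost its call without MG1 replicate 1 (-0.81) or MG2 replicate 1 (-0.82) or 2 (-0.64). Dut, kept by the filter through its basal-like sums, had -1.73 (SE 0.75, adjusted p 0.0961 by DESeq2) for secretory-like minus basal-like cells. The basal-like sums held 13 to 118 cells a library.

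Inside MT1, replication genes were lower in epithelial-like than in the other tumor cells, which were all of the mesenchymal-like cluster. Of 41 members tested, 22 were lower and 4 higher in epithelial-like cells, with a median of -0.37, beside 31.7% and 32.9% of 8728 genes and a median of 0.02. The cells were classed by genes other than these, in the same libraries, though further cell cycle genes were kept in the clustering. Summed members had 2099, 1548, 1710, 1800 and 1965 CPM in epithelial-like cells of the 5 libraries and 2723, 1993, 2121, 2480 and 2705 in mesenchymal-like cells. In each library the mesenchymal-like sum was higher.

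Dut had the most negative value of the 41. It had 79.0, 45.3, 62.5, 67.4 and 94.7 CPM in epithelial-like cells and 195, 190, 173, 187 and 223 in mesenchymal-like cells (-1.45, SE 0.09, adjusted p 1.04e-22 by edgeR). Cdc45 (-1.44), Gins3 (-1.42), Rpa1 (-1.37), Gins2 (-1.31), Rrm2 (-1.11) and Orc6 (-1.003) were also called. DESeq2 did not call the lower genes Cdc6 (-0.53), Chaf1a (-0.33), Hells (-0.21), Rpa2 (-0.36) and Pola2 (-0.81). Cdc6, Chaf1a and Hells also lost their call without MT1 replicate 4 (-0.43, -0.36 and -0.13), and Pcna without the library block (-0.37). The 4 genes higher in epithelial-like cells were Fen1, Chaf1b, Gins4 and Slbp. Fen1 had 92.7, 84.6, 71.8, 86.8 and 92.8 CPM in epithelial-like cells and 52.1, 31.1, 33.9, 38.5 and 42.7 in mesenchymal-like cells, without overlap (1.11, SE 0.12, adjusted p 1.73e-12 by edgeR). The calls of Chaf1b and Slbp were lost with DESeq2 (0.77 and 0.42) and without the library block (0.61 and 0.38), that of Chaf1b without MT1 replicate 1 (0.47) or 3 (0.37), and that of Slbp without MT1 replicate 4 (0.24) or 5 (0.37). Gins4 had 69.1, 56.4, 66.5, 62.7 and 67.8 CPM against 41.7, 34.2, 39.4, 57.3 and 47.9 (0.51, SE 0.12, adjusted p 2.39e-04). Of the helicase genes, Mcm2 (-0.57), Mcm4 (-0.78) and Mcm5 (-0.48) were lower in epithelial-like cells, the last not without MT1 replicate 4 (-0.44) or with DESeq2 (-0.43), and Mcm3, Mcm6 and Mcm7 had -0.17, -0.12 and 0.12 with no call. Of the mitotic genes, 23 of 28 were lower in epithelial-like cells and 0 higher.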

How the data were processed

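The authors sequenced Drop-seq libraries, and processed the reads with Drop-seq tools 1.13 and STAR against GRCm38.p6. They deposited raw UMI counts per gene and cell. No normalization was applied to the deposited counts. The members, gene lists and tests were chosen with earlier results of these data known. Columns were assigned to 12 libraries by their labels, with 0 left unassigned. Libraries shared between 0 and 7 cell barcodes.

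Clusters were made in scanpy 1.11.5 with the Leiden method (leidenalg 0.10.2, 3000 variable genes, 30 components, 20 neighbours, resolution 0.6) after 124 replication and mitotic genes were removed. A cluster took the cell type with the largest share of its fixed markers at a log2 fold of 1 or more over other cells (pseudocount 10 CPM), with at least 3 markers. This naming rule was set after seeing the data. The endothelial-like cluster also held 7 basal markers. Doublets were kept, since the caller found only 44 (0.208% of cells) and had not worked at that share.

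Counts were summed per library and tested with edgeR 4.0.16 (TMM, filterByExpr, quasi-likelihood F test, Benjamini-Hochberg adjusted p under 0.05 over all genes tested) in R 4.3.3. The 4 groups shared a dispersion. Gland types and MT1 classes used sums of 10 or more cells with the library as a block, and the tests with mice as replicates used the mouse as a block, since gland and tumor came from the same animal. A group at 0 UMIs was set at 3 counts over the group. DESeq2 1.42.0, RLE size factors, no filter, other cell selections and leaving out each library were alternatives. Scripts were tested on simulated data. Genes named with all library values are the member with the most UMIs of each role, those not called in a mouse, the 6 with the smallest adjusted p in the difference between the mice and the 6 largest differences between the tumors. Other members are given by range, count or examples chosen after their values were seen. Of the other 2 lists the rule named the 2 largest called differences between the mice in each direction. Sequences are from RefSeq and gene coordinates from GENCODE M21 (GRCm38). Overlapping genes were found for 22 of the 44 members, and their counts are uncertain where counting ignored strand. Depth per library is given with the results.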

Additional observations from a re-analysis of the deposited data

Results flagged for a closer look

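The tumor-gland change differed between the mice by an interaction test for 7 of the genes described by library. The differences of mouse 1 minus mouse 2 were 2.44 for Fen1, 1.85 for Pold2, 1.24 for Gins4, -1.27 for Rfc2 and -0.76 for Pcna on the log2 scale. The fitted values of 6.10 for Pole and 6.35 for Mcm10 depend on the prior count, since MG1 had 0 UMIs of both.

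Among the 15 measures checked in the 5 MT1 libraries, 2 had a library far from the others. MT1 replicate 4 had 40.2 CPM of Slbp while the other 4 lay between 29.3 and 31.6 CPM. MT1 replicate 2 had 52.4 CPM of Gins4 while the other 4 lay between 61.4 and 63.1 CPM. Chance alone flags about 1 in 20 groups.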

How the results depend on the processing

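The number of members called in MT1 against MG1 stayed between 40 and 42 over the changes of scaling, tool, filter and cells, and between 35 (without MG1 replicate 1) and 43 when libraries were left out. In MT2 against MG2 it stayed between 41 and 42 in both, and in MT1 against MT2 between 24 and 29, and between 23 and 29. Members whose tumor-gland change differed between the mice numbered 8, 5 with DESeq2 and 3 to 9 over leave-outs, with 3 without MG2 replicate 2 and 4 without MG1 replicate 1. With mice as replicates, DESeq2 called 27 (4.15% of all genes called higher) where edgeR called 0, with or without the mouse block. For secretory-like against hormone-sensing-like cells the count was 4, 2 with DESeq2, 1 without the library block and 0 to 5 over leave-outs. For secretory-like against basal-like cells it was 2, 1 with DESeq2, 1 without the library block, 4 with no low-count filter and 0 to 2 over leave-outs. The 2 were Fen1 and Dut, which the filter kept through the type in which they were highest. Fen1 was also among the 4 for secretory-like against hormone-sensing-like cells. For hormone-sensing-like against basal-like cells it was 5, 3 with DESeq2 and 1 to 7 over leave-outs. Between 3 and 24 members were deep enough to test in those gland leave-outs. The MT1 class count was 26, 18 to 27 otherwise and 20 to 27 over leave-outs. The difference in the share of cells with S-phase UMIs was 28.0 to 31.1 points over leave-outs. The permutation p over both mice stayed under 0.05 at the smallest value each design allows, while that of mouse 1 alone did not (0.0667 or 0.167 without a library of that mouse) and mouse 2 alone could not reach it. No gene described by library was called in opposite directions by the settings run. No paired analysis by replicate number was possible because the numbers name libraries in accession order and pair nothing. The pairing used is the mouse.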
